A study of Mus musculus with 16 samples.

Results

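The 10 genes described here are immediate early genes that also respond to tissue dissociation: Fos, Fosb, Jun, Junb, Atf3, Egr1, Egr2, Egr3, Nr4a1 and Ier2. They were chosen by symbol, and all 10 were found among the 23420 genes of the count tables. The tables cover 16 libraries. They come from 8 C57BL/6 mice, all male, of which 4 were wild-type by label and 4 had the genotype label of a Trib1 knockout specific to adipocytes. Trib1 encodes a pseudokinase that hands substrates to a ubiquitin ligase. From every mouse came a library of subcutaneous fat cells freed by collagenase and a library of liver homogenised whole in TRIzol, so there were 4 groups of 4 libraries. Wild-type mice WT-1135, WT-1136 and WT-1138 and knockout-labelled mice KO-1137 and KO-1139 were 76 days old, and WT-1153, KO-1151 and KO-1152 were 70 days old. Values of a group are always given by rising mouse number, so the wild-type value of the 70-day mouse comes last, as do those of the knockout-labelled 70-day mice. Every mouse was otherwise untreated as far as the labels say. The sources used here give neither the promoter or Cre line behind the knockout nor the deleted part of Trib1.

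Each library held 28560887 to 53716669 counts over 15279 to 16747 genes. Levels are given as CPM, counts set to a common library total, after TMM scaling over all 16 libraries, unless another scale is named. A count of 0 allows a level of up to 0.0558 to 0.105 CPM by library totals (3 counts), which covers counting error only. This takes every count as independent, whereas 77.9% of the counts from 1 to 20 were even. If counts came in pairs, the limit would be higher. The tissue labels matched their markers. The summed level of 10 adipocyte markers was 44000 to 58500 CPM by library totals in adipocyte libraries and 177 to 204 in liver, and that of 10 hepatocyte markers was 107000 to 132000 in liver and 23.1 to 128 in adipocyte libraries. Trib1, located at chr15:59648350-59657099 of GRCm38, did not separate the genotype labels. In adipocytes its levels were 615, 788, 1020 and 1070 CPM in the wild-type libraries and 920, 1060, 1210 and 1130 CPM in the knockout-labelled ones, and no library lacked it. The difference was 0.28 ± 0.18 (log2 ± SE; adjusted p = 0.241, edgeR), so the groups are called by their labels throughout. Reads over an undeleted part of the gene would still be counted, so the counts do not check the deletion itself.

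Immediate early genes are transcribed within minutes of a stimulus, without new protein synthesis, when kinase cascades reach factors already sitting at their promoters. Serum response factor binds the CArG box together with ternary complex factors that MAP kinases phosphorylate, and CREB binds the cAMP response element (CRE). Fos and Fosb pair with Jun and Junb to form the dimeric factor AP-1, and Atf3, a stress-induced member of the ATF/CREB family, can also pair with Jun proteins. Egr1, Egr2 and Egr3 are zinc finger factors that bind GC-rich elements, Nr4a1 is an orphan nuclear receptor, and Ier2 is a small nuclear protein. Enzymatic digestion of solid tissue is known to switch on many of these genes, so they serve as a mark of the isolation procedure in cells prepared from tissue. Whole tissue put straight into lysis reagent has no such step.

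All 10 genes are protein-coding and lie at separate loci of GRCm38. The AP-1 and ATF genes are Fos at chr12:85473890-85477273, Fosb at chr7:19302696-19310051, Jun at chr4:95049034-95052222, Junb at chr8:84974484-84978718 and Atf3 at chr1:191170296-191218039. The others are Egr2 at chr10:67535475-67542188, Egr3 at chr14:70077203-70082614, Nr4a1 at chr15:101254269-101274795 and Ier2 at chr8:84661331-84662852, and the position of Egr1 is given with its values. Promoter windows of 250 bases before to 50 bases after an annotated start were taken from RefSeq (GRCm38.p6), and 7 of the 10 genes had one. Egr1, Egr3 and Ier2 were not matched. The windows of 5 genes are shown, 5′ to 3′ on the strand of the gene, because their levels carry the tissue and genotype results below. Capitals mark the letters of any motif searched for.
Fos, chr12:85473640-85473939, plus strand: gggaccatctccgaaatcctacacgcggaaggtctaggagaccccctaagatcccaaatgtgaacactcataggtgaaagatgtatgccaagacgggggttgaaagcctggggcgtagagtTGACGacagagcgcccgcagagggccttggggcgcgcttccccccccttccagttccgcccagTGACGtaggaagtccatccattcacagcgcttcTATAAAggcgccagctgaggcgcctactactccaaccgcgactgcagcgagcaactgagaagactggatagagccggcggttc
Fosb, chr7:19309996-19310295, minus strand: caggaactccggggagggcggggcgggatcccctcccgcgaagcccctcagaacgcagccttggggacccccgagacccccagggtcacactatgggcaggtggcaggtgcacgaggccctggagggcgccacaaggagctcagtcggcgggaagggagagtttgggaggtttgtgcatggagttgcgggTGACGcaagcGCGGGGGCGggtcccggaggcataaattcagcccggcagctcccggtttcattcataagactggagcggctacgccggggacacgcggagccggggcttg
Junb, chr8:84978699-84978998, minus strand: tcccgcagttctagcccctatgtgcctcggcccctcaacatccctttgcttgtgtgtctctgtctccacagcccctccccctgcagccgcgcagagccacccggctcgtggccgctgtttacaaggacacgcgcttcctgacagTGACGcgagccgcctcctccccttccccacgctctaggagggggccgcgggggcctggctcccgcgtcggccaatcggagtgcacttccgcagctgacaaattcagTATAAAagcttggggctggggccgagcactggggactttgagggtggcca
Egr2, chr10:67537619-67537918, plus strand: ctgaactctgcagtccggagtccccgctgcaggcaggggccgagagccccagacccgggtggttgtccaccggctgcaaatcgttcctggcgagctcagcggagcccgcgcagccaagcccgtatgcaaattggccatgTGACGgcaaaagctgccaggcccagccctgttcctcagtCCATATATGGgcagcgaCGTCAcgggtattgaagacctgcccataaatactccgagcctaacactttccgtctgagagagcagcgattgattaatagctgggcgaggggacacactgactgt
Nr4a1, chr15:101266596-101266895, plus strand: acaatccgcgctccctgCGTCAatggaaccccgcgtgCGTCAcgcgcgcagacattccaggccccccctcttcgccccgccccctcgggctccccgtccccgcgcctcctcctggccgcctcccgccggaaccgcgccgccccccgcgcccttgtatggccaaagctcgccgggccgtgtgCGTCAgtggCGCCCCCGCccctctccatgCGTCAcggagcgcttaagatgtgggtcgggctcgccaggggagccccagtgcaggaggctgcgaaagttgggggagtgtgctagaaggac

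Each window was searched on both strands for the CArG box, the full CRE TGACGTCA, the CRE core TGACG, the AP-1 element TGANTCA, the EGR element GCGNGGGCG and TATAAA. A full CRE holds a core on each strand, and the core was added to the search after the sequences had been seen. The CRE core was present in 6 of the 7 genes with a window (Fos, Fosb, Junb, Atf3, Nr4a1 and Egr2) and in 20.8% of 32851 windows of the genome. Fos held 2 copies, at -129 and -66 from the start, and Nr4a1 held 4. The Egr2 window shown held 2 cores and, between them at -72, the CArG box CCATATATGG. CArG boxes were found in 1.63% of all windows and in 1 of the 7 genes, but Egr2 has 5 annotated starts and so had more sequence to match. The EGR element stood in Fosb at -50 and in Nr4a1 at -60 (5.55% of all windows). TATAAA stood in Fos at -33 and in Junb at 0, on the annotated start itself (13.6%). None of the 7 genes held the full CRE (1.79% of all windows) or the AP-1 element (7.81%), which says only that these letters are not in these windows. The same holds for the CArG box in the genes other than Egr2. Sequence outside the windows, such as more than 250 bases before a start, was not searched, and Egr1, Egr3 and Ier2 had no window at all. The matches describe sequence and were not tested for binding.

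The first comparison set adipocytes against liver, the contrast in which the procedures of isolation also differed. In wild-type mice all 10 genes were higher in adipocytes, and no adipocyte library overlapped a liver library for any of them. Among the genes counted in every liver the differences ran from 16.2-fold for Ier2 to 690-fold for Atf3. They were larger still for Fosb and Egr2, which were at or near 0 in liver. The place of Egr3 cannot be read from its 2 liver counts (ratio 722, interval 129 to 28500). In this contrast 77.6% of the 14366 genes tested were called, 40.5% higher in adipocytes and 37.2% lower, and 38.9% were higher without overlap, so a call by itself was common. The sizes were not: the median difference of the 10 genes was 7.2 on the log2 scale, and the median absolute difference of all genes tested was 1.02. In bulk samples fewer cells of a type and less RNA per cell cannot be told apart, and tissue, collagenase isolation and RNA kit cannot be told apart in this design. The labels give RNA integrity numbers over 6 in fat and over 9 in liver, and their part in the differences was not tested.

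Fos, the partner that makes AP-1 bind DNA tightly with Jun, was at 3020, 2480, 3210 and 2550 CPM in the adipocytes of the wild-type mice, and at 1.61, 9.19, 1.6 and 12.5 CPM in their livers. The lowest adipocyte library thus stood far above the highest liver library, and most of the variation lay among the livers. The log2 difference was 8.79 ± 0.76 (SE), or 442-fold (adjusted p = 1.14e-06, edgeR). Jun was at 2220, 1780, 2330 and 1980 CPM in the same adipocyte libraries and at 12.5, 48.6, 28.7 and 93.2 CPM in the livers. The difference was 5.48 ± 0.56, or 44.6-fold (adjusted p = 4.79e-06). Junb, which can replace Jun in AP-1 with weaker activity on many targets, kept the highest wild-type liver level per length of the 10. It measured 1360, 1060, 1350 and 916 CPM in adipocytes and 35.8, 73.9, 64.4 and 81.3 CPM in liver. The Junb difference was 4.18 ± 0.28, or 18.1-fold (adjusted p = 1.43e-07).

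Fosb, the FOS family member known for its stable splice form, was high in adipocytes and near 0 in liver. Its wild-type adipocyte libraries held 2060, 1830, 3080 and 2650 CPM, and the livers of the same mice held 0.153, 0, 0.0681 and 0.566 CPM. The summed counts were 493417 in adipocytes and 28 in liver, a ratio of 10100 after TMM scaling (95% interval 6040 to 18600, from halved counts, counting error only). Atf3 had the largest fold among the genes counted in every liver. It was at 447, 411, 516 and 502 CPM in wild-type adipocytes and at 1.07, 0.634, 0.409 and 0.592 CPM in liver, a difference of 9.43 ± 0.25 or 690-fold (adjusted p = 1.62e-10, edgeR).

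Among the EGR genes, Egr1 (chr18:34859823-34864984) was the only one with an appreciable liver level. It measured 3300, 2490, 3890 and 3390 CPM in wild-type adipocytes and 57.6, 168, 26.2 and 87.1 CPM in liver (log2 difference 5.25 ± 0.53, 38.1-fold, adjusted p = 4.59e-06, edgeR). The liver values of Egr1 spread widely, and even so the groups stayed far apart. Egr2, the factor known from hindbrain and myelin development and from early adipogenesis, was at 627, 600, 754 and 830 CPM in wild-type adipocytes. Its liver values were 0, 0.238, 0.136 and 0 CPM, and the ratio of summed counts, 144903 to 10, was 8340 (95% interval 3570 to 25700). Egr3 was the lowest of the 10 in adipocytes, also per length, at 15.6, 9.51, 14.8 and 7.52 CPM. A single wild-type liver, that of WT-1136, had any Egr3 count, and the ratio of 2508 to 2 counts was 722 with an interval of 129 to 28500. The fitted log2 differences of Fosb, Egr2 and Egr3 rest on almost no liver counts and are not given.

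Nr4a1 and Ier2 completed the set. Nr4a1 was at 368, 355, 417 and 376 CPM in wild-type adipocytes and at 6.79, 7.92, 4.5 and 11 CPM in liver (5.62 ± 0.26, 49.2-fold, adjusted p = 5.98e-09, edgeR). Ier2 had the smallest contrast, with 566, 485, 566 and 472 CPM in adipocytes and 26.3, 41.6, 23.4 and 35.7 CPM in liver (4.02 ± 0.2, 16.2-fold, adjusted p = 1.33e-08).

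**Figure D1:**
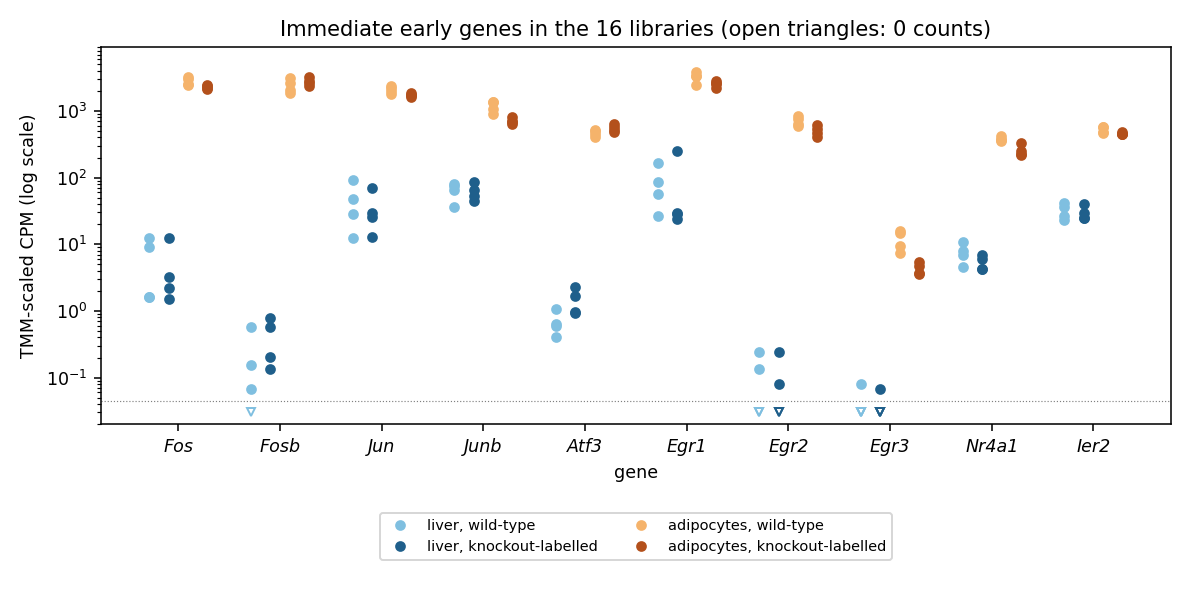
TMM-scaled CPM of the 10 genes (log axis, 1 point per library) by tissue and genotype label, with 4 libraries per group; open triangles below the dotted line are libraries with 0 counts. Every adipocyte point lies above every liver point of the same gene, and Fosb, Egr2 and Egr3 sit near 0 in liver.

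Levels between genes were compared per length, as CPM divided by exon length in kilobases (RPKM). In wild-type adipocytes the order was Fos at 1200 ± 152 RPKM (SD, n = 4), Egr1 at 729 ± 129, Jun at 651 ± 76.7, Junb at 510 ± 96.7, Fosb at 385 ± 90.6, Ier2 at 343 ± 33.2, Atf3 at 218 ± 22.6, Egr2 at 207 ± 31.8, Nr4a1 at 108 ± 7.58 and Egr3 at 2.69 ± 0.898. Egr1 and Jun, Fosb and Ier2, and Atf3 and Egr2 were neighbours whose means differed by less than the larger of their SDs. Fos ranked between 9 and 21 among 17596 genes with a length in the wild-type adipocyte libraries, while in the livers of the same mice it ranked between 5002 and 9957. Jun ranked between 22 and 36 and Egr1 between 19 and 37 in those adipocytes, and Egr3 between 6348 and 8223. In wild-type liver the order per length was different, led by Junb at 27.8 ± 8.67 RPKM, Ier2 at 20.8 ± 5.52, Egr1 at 18.9 ± 13.6 and Jun at 14.4 ± 10.9. Those 4 genes overlapped within their SDs. Fos followed at 2.64 ± 2.34 and Nr4a1 at 2.15 ± 0.766, and Atf3, Fosb, Egr2 and Egr3 were below 1 RPKM.

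Together the 10 genes held 1.98%, 1.45%, 1.99% and 1.69% of all counts in the wild-type adipocyte libraries. The livers of those mice gave 0.0119%, 0.0285%, 0.0125% and 0.0271%. The knockout-labelled mice gave 1.27%, 1.26%, 1.36% and 1.32% in adipocytes and 0.0143%, 0.0095%, 0.0123% and 0.0383% in liver. Fos, Fosb, Jun and Egr1 made up most of the adipocyte share, and Egr1, Junb, Jun and Ier2 most of the liver share.

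**Figure D2:**
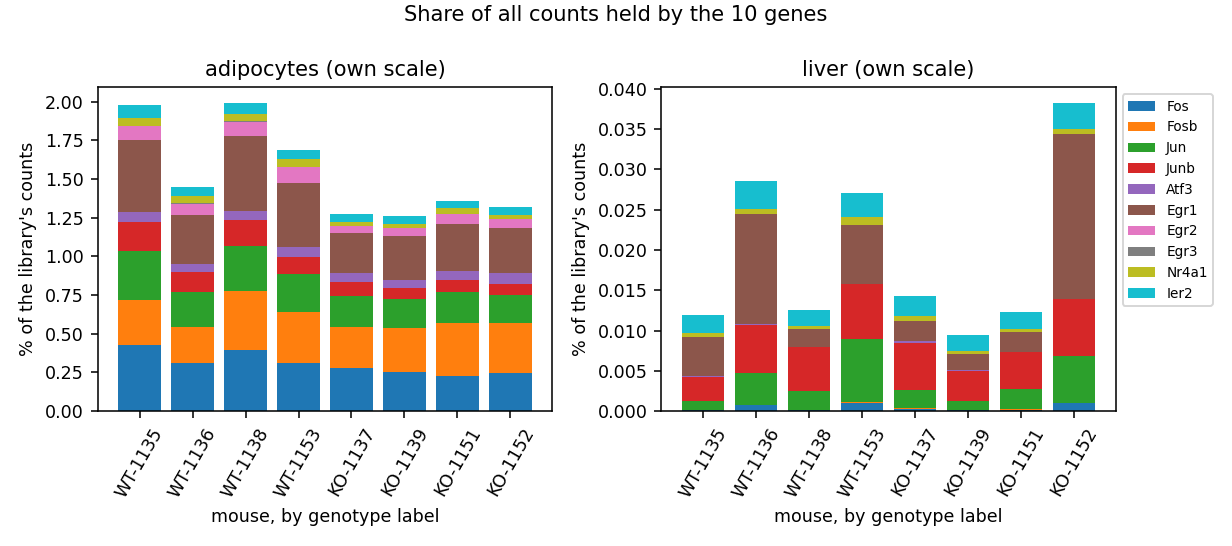
Share of each library's counts held by the 10 genes (percent, stacked by gene, 1 bar per mouse), with adipocytes on the left and liver on the right, each on its own scale. Adipocyte bars stand between 1.26% and 1.99% and liver bars between 0.0095% and 0.0383%, and KO-1152 has the tallest liver bar.

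The knockout-labelled mice, which share no library with the wild-type contrast, gave the same direction for all 10 genes. Of 14229 genes tested there 79.8% were called, 40.4% higher in adipocytes and 39.3% lower, and 39.4% were higher without overlap. The 10 genes were all higher with no overlap. Fos differed by 8.82 ± 0.68 (451-fold), Jun by 5.61 ± 0.47 (48.9-fold), Junb by 3.47 ± 0.19 (11.1-fold), Atf3 by 8.59 ± 0.29 (386-fold), Egr1 by 4.93 ± 0.8 (30.5-fold), Nr4a1 by 5.54 ± 0.21 (46.5-fold) and Ier2 by 3.93 ± 0.16 (15.2-fold), with adjusted p up to 0.000182 (edgeR). Fosb, Egr2 and Egr3 had 56, 12 and 2 liver counts in all, for ratios of 6590 (4560 to 9920), 5580 (2560 to 15200) and 300 (53.5 to 11900).

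Because each mouse gave both tissues, the ratio could also be taken within a mouse. Over the 8 mice the fold for Fos was 178 at its lowest, 854 at the median and 2000 at its highest, and for Atf3 224, 626 and 1260. Egr1 ranged from 10.3 over a median of 67.4 to 148, Jun from 21.3 over 64.4 to 178, and Nr4a1 from 34.3 over 48 to 92.7. Ier2 had the narrowest range, 11.4 to 24.2 around a median of 17, and Junb ran from 7.48 to 38.1 around 13.8. No mouse had any of these 7 genes higher in liver.

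Other genes of the same response were examined in lists of further immediate early genes, heat shock and chaperone genes, feedback inhibitors of MAP kinase signalling and upstream regulators. In wild-type mice 29 of 33 further immediate early genes were higher in adipocytes and 2 lower, with a median of 3.69. Klf4, a zinc finger factor also induced early after a stimulus, was 282-fold higher (8.14 ± 0.25, adjusted p = 3.19e-10), and Fosl2, another FOS family member, 37.2-fold higher (5.22 ± 0.13, adjusted p = 1.1e-10). Of 12 feedback genes 11 were higher and 0 lower, with a median of 2.72. Among them were Spry2, an inhibitor of receptor tyrosine kinase signalling (5.19 ± 0.2, adjusted p = 1.73e-09), and Dusp8, a MAP kinase phosphatase (5.06 ± 0.29, adjusted p = 4.49e-08). The chaperones were divided, with 6 higher and 3 lower of 11 and a median of 0.4. The co-chaperone Dnajb1 rose by 4.2 ± 0.14 (adjusted p = 4.99e-10) and the chaperone Hsp90aa1 by 1.93 ± 0.12 (adjusted p = 8.07e-08). Of 17 upstream regulators 8 were higher and 4 lower with a median of 0.23, close to the median of all genes tested, 0.061. Srf, the factor that binds the CArG box, was 5.51-fold higher (2.46 ± 0.12, adjusted p = 1e-08) and Mapk3, the kinase ERK1, 2.45-fold higher (1.29 ± 0.12, adjusted p = 2.36e-06). Scaling by library totals moved the median of all genes to 0.712 and the share of calls that were higher from 52.2% to 73.4%. It gave 8 chaperones higher and 1 lower, and 14 regulators higher and 2 lower. All 10 immediate early genes described above stayed higher under that scaling.

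The 10 genes differed in how much they varied among animals, and of the 7 that passed the filter in liver Fos, Jun and Egr1 varied most there. Fosb, Egr2 and Egr3 were too near 0 in liver for their spread to be read. In wild-type liver the SD of log2 CPM was 1.57 for Fos, 1.22 for Jun and 1.12 for Egr1, at the percentiles 99.6, 98.9 and 98.6 of the genes tested in liver, whose median SD was 0.204. In knockout-labelled liver the SDs of Egr1, Fos and Jun were 1.61, 1.32 and 1, at the percentiles 99.8, 99.6 and 98.8. The highest liver exceeded the lowest 7.8-fold for Fos in the wild-type group and 8.47-fold in the knockout-labelled group, and for Egr1 6.42-fold and 10.5-fold. In adipocytes Fos had an SD of 0.183 in wild-type and 0.0892 in knockout-labelled libraries (percentiles 46 and 19), and its highest library exceeded the lowest 1.29-fold and 1.16-fold. Jun was steadier still in knockout-labelled adipocytes, with an SD of 0.0697, while Egr3 had the widest spread of the set in wild-type adipocytes, 0.506 (percentile 85.5). Junb, Nr4a1, Atf3 and Ier2 varied less in wild-type liver, with SDs of 0.531, 0.53, 0.534 and 0.384, all above the median gene.

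The same 3 livers were the high ones for most of the set. WT-1136, WT-1153 and KO-1152 held the 3 highest values of the 8 livers for Fos, Jun, Junb, Egr1, Nr4a1 and Ier2, which is 6 of the 7 genes counted in every liver. For Fos these were 9.19, 12.5 and 12.6 CPM against 1.49 to 3.25 CPM in the other 5. For Egr1 they were 168, 87.1 and 249 CPM, and the next was WT-1135 at 57.6. Atf3 did not follow: its highest liver was KO-1137 at 2.3 CPM. These 3 livers came from both genotype labels and both ages and were picked out after their values were seen. The liver libraries of 70 days were deeper, at 46247411 to 48961818 counts, than those of 76 days, at 28560887 to 35616678, and the part of depth or age in the levels was not tested. In adipocytes the 10 genes deviated from their group means by -0.21, -0.07 and -0.01 on average (log2) in WT-1136, WT-1153 and KO-1152. These adipocyte libraries were the lowest of their group for 7, 3 and 3 of the 10 genes and the highest for 0, 1 and 1. Shares over all genes were not computed.

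**Figure D3:**
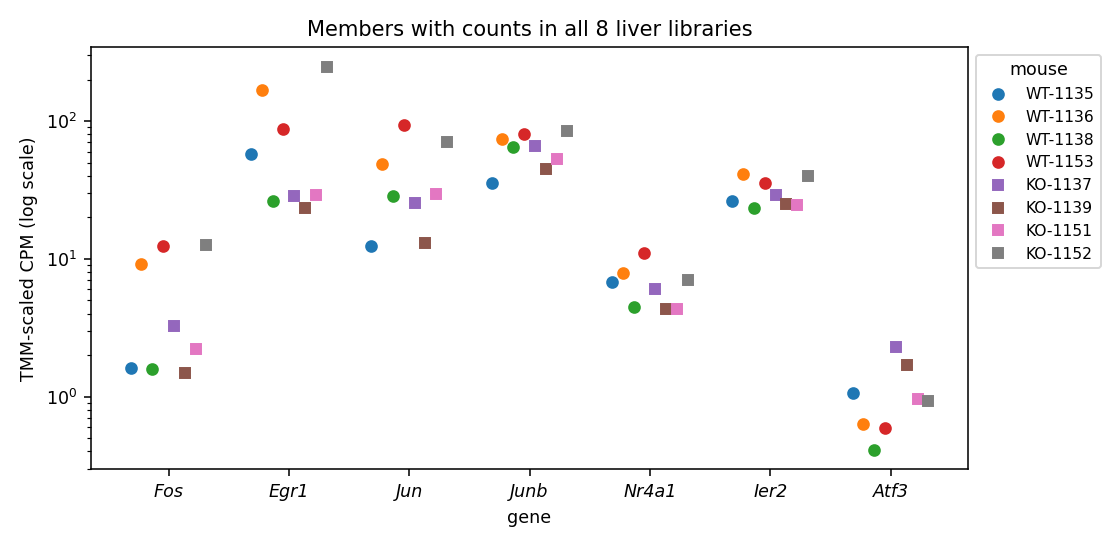
TMM-scaled CPM (log axis) of the 7 genes with counts in all 8 liver libraries, 1 point per mouse, with circles for wild-type and squares for knockout-labelled mice. WT-1136, WT-1153 and KO-1152 hold the 3 highest points for every gene shown except Atf3.

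As a description over 8 libraries, with deviations from the group means, the non-member genes closest to the mean deviation of the set in liver were Gfod2 (r = 0.989), B3gat3 (0.987), Pacsin3 (0.966), Dennd3 (0.952), Coq5 (0.947) and Mad2l2 (0.947). Within the set Fos stood at 0.994, Ier2 at 0.963, Egr1 at 0.894 and Atf3 at -0.22. In adipocytes the closest were Gmeb2 (0.982), Mettl13 (0.97), Ammecr1l (0.957), Sbf2 (0.951), Abi2 (0.95) and Brd8 (0.942), and the members ranged from 0.424 for Egr2 to 0.955 for Jun. The libraries share depth and scaling, the members are part of the mean they are set against, and the highest values over all genes tested are shown, so these coefficients carry no p.

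The comparison of genotype labels in adipocytes found 4 of the 10 genes lower in knockout-labelled mice and none higher: Egr3, Junb, Nr4a1 and Egr2. The falls were modest beside the tissue differences, from 1.43-fold for Egr2 to 2.78-fold for Egr3. The background was high, since 35.2% of 13795 genes tested were called, 18% higher and 17.1% lower. The median change of the 10 genes was -0.36 on the log2 scale against -0.011 for all genes. Of the genes tested 14% had every knockout-labelled library below every wild-type one, and 4 of the 10 did: Egr3, Junb, Nr4a1 and Fos.

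Egr3 had the largest fall. Its levels were 15.6, 9.51, 14.8 and 7.52 CPM in the wild-type and 5.39, 4.7, 3.67 and 3.63 CPM in the knockout-labelled libraries. The groups did not overlap, although WT-1153 and WT-1136 lay nearer to the knockout-labelled libraries than the other wild-type mice did. The change was -1.48 ± 0.25 (adjusted p = 0.00262, edgeR). Junb, the next, went from 1360, 1060, 1350 and 916 CPM to 806, 689, 696 and 637 CPM, again without overlap. Its change was -0.76 ± 0.15, or 1.69-fold lower (adjusted p = 0.0048).

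Nr4a1 was at 368, 355, 417 and 376 CPM in wild-type and at 229, 221, 331 and 249 CPM in knockout-labelled adipocytes. KO-1151 was the highest of its group and still below every wild-type library. The change was -0.59 ± 0.13, or 1.5-fold lower (adjusted p = 0.00818, edgeR). Egr2 was at 627, 600, 754 and 830 CPM in wild-type and 410, 461, 606 and 529 CPM in knockout-labelled adipocytes. These groups overlapped, as KO-1151 stood above WT-1136, and the change was -0.52 ± 0.15 (adjusted p = 0.0264). The Egr2 call was lost when KO-1137, WT-1138, KO-1139, KO-1152 or WT-1153 was left out, with adjusted p = 0.0535, 0.069, 0.075, 0.052 and 0.061. It was also lost with all 16 libraries in the fit (-0.49, adjusted p = 0.134).

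The other 6 genes did not pass the threshold. Fos went from 3020, 2480, 3210 and 2550 CPM to 2440, 2340, 2110 and 2240 CPM. All knockout-labelled values lay below all wild-type values, yet the change of -0.33 ± 0.13 had an adjusted p of 0.0728. Jun changed by -0.29 ± 0.12 (adjusted p = 0.0897), Egr1 by -0.38 ± 0.16 (0.0874) and Ier2 by -0.2 ± 0.1 (0.136). Fosb and Atf3 had positive values, 0.17 ± 0.18 (0.509) and 0.22 ± 0.12 (0.19). Fosb measured 2060, 1830, 3080 and 2650 CPM in wild-type and 2330, 2630, 3190 and 2860 CPM in knockout-labelled adipocytes, with overlapping groups. Atf3 measured 447, 411, 516 and 502 CPM against 514, 484, 579 and 648 CPM, also overlapping.

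How many genes passed depended on the tool, the scaling and the mice. DESeq2, which called 39.2% of all genes, had 7 of the 10 lower, adding Fos (adjusted p = 0.0107), Jun (0.0191) and Egr1 (0.0252). With library totals in place of TMM (37.6% of all genes called) 8 were called lower, with Fos at -0.53, Jun at -0.49, Egr1 at -0.58 and Ier2 at -0.4 (adjusted p = 0.0138, 0.0125, 0.0126 and 0.0168, edgeR). That scaling moved the median of all genes to -0.205 and the share of calls that were higher from 51.3% to 24.9%, and it turned Fosb to -0.02. Within mice of 76 days (12.1% of all genes called) 2 genes were called lower, Egr3 (-1.42, adjusted p = 0.0169) and Nr4a1 (-0.78, 0.0209), while Junb was at -0.77 (0.0507) and Egr2 at -0.62 (0.0645). Within mice of 70 days (11.3% of all genes called), where a single wild-type mouse was assumed to vary like the other group, only Egr3 was called. Junb there was at -0.48 (0.0864), Nr4a1 at -0.4 (0.245) and Egr2 at -0.57 (0.0552). Over the 8 fits that left out 1 library, 3 to 7 of the 10 genes were called lower, and 3553 to 5296 of all genes were called either way. The highest number, 7, came without WT-1136, with Fos at -0.4 (0.0469), Jun at -0.37 (0.0386) and Egr1 at -0.5 (0.0227).

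**Figure D4:**
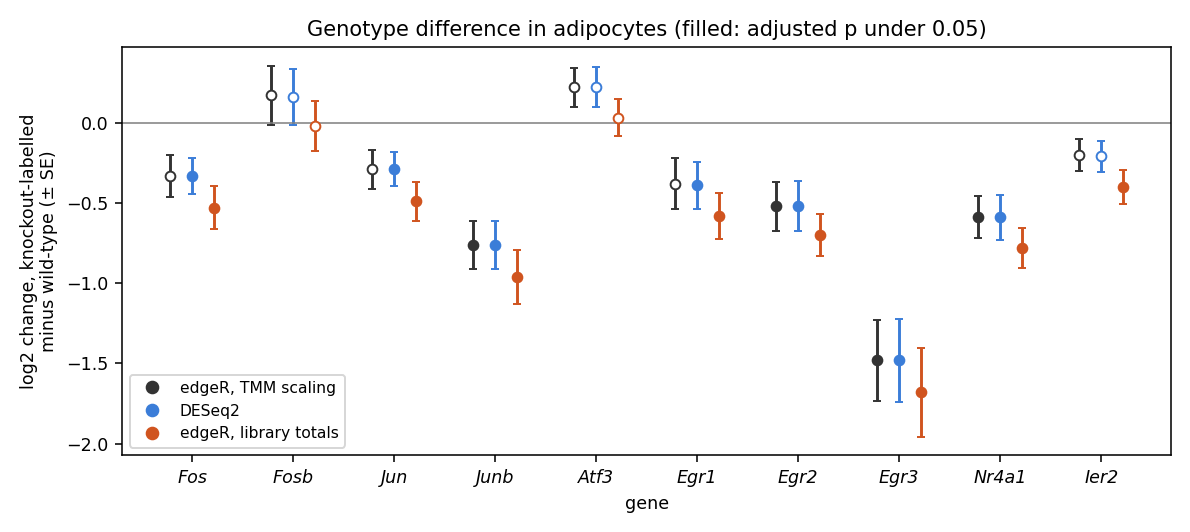
Log2 change in adipocytes, knockout-labelled minus wild-type, with its SE for the 10 genes under edgeR with TMM scaling, DESeq2 and edgeR with library totals; filled points have an adjusted p under 0.05. Junb, Egr2, Egr3 and Nr4a1 are filled under all 3 settings, and Fosb crosses 0 with library totals.

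Markers of several other cell types differed by genotype label in the same libraries, most of them lower. Of 10 endothelial markers 10 were called lower in knockout-labelled adipocytes, and their summed level by library totals was 908 to 2860 CPM in wild-type libraries against 229 to 536 CPM in the others. Of 10 fibroblast and progenitor markers 8 were lower (796 to 1180 against 311 to 718), and of 7 mural cell markers tested 7 were lower (270 to 460 against 97.5 to 153). Macrophage markers were called lower in 1 of 7 tested (260 to 433 against 87 to 363, with Clec4f at 0 in every adipocyte library), and lymphocyte markers in 3 of 9 (27.7 to 65.8 against 13.2 to 38.1). Within the wild-type group the endothelial sum was 2860 in WT-1135, 1730 in WT-1138, 1270 in WT-1136 and 908 in WT-1153. Within the knockout-labelled group it was 536 in KO-1137, 442 in KO-1139, 385 in KO-1152 and 229 in KO-1151. Whether a gene followed these orders could depend on the scaling, as for Egr3 in the knockout-labelled group, and the share over all genes was not computed. Granulocyte and mast cell markers went the other way, with 2 of 7 higher and 1 lower (11.1 to 19.6 against 19.3 to 22.6). Hepatocyte markers had 2 higher and 1 lower of 4 tested, with sums of 54.4 to 128 against 23.1 to 34.6, and skeletal muscle markers 1 lower of 3 (14.4 to 33.6 against 7.08 to 7.24). The part of these cells in the levels of the 10 genes was not tested. The TMM factors within the adipocyte comparison were also split by label: the wild-type libraries had 1.02 to 1.16, the knockout-labelled ones 0.898 to 0.984.

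Among further immediate early genes in adipocytes, 11 of 33 were lower and 2 higher in knockout-labelled mice, with a median of -0.25. Gadd45g, a growth arrest and DNA damage gene, fell from 168 ± 8.49 to 80.6 ± 11.1 CPM (SD, n = 4; log2 -1.09 ± 0.1, adjusted p = 0.000132, edgeR). Arc, the activity-regulated gene of neurons, fell from 79.4 ± 18.3 to 27.4 ± 4.15 CPM (-1.57 ± 0.18, adjusted p = 0.000424). Sik1, a salt-inducible kinase that CREB induces, fell from 96.7 ± 14.2 to 35.2 ± 7.72 CPM (-1.49 ± 0.16, adjusted p = 0.000252). Ier5l, of the same family as Ier2, fell from 35 ± 12.2 to 10 ± 3.09 CPM (-1.83 ± 0.3, adjusted p = 0.00227). With library totals the list gave 19 lower and 2 higher.

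The 4 further lists together had 29 of 73 genes called (39.7%) against 35.2% of all genes tested, so a call was about as common in them as elsewhere. Of 12 feedback genes 3 were lower and 2 higher (median -0.05): Spry1 fell by 1.11 ± 0.24 (adjusted p = 0.00719) and the phosphatase Dusp1 by 0.59 ± 0.19 (0.0389), while Dusp4 rose by 1.05 ± 0.21 (0.00503) and Spry2 by 0.84 ± 0.17 (0.0051). Of 17 upstream regulators 5 were lower and 2 higher (median -0.09; 7 lower and 0 higher with library totals). Elk3, a ternary complex factor that partners Srf, fell by 1.84 ± 0.33 (0.0031), and Mkl2, a coactivator of Srf, by 0.63 ± 0.13 (0.00667). The kinase Mapk14 rose by 0.36 ± 0.08 (0.00767) and the EGR corepressor Nab1 by 0.33 ± 0.09 (0.0174), and neither was called with library totals (0.16 and 0.13, adjusted p = 0.143 and 0.156). Of 11 heat shock and chaperone genes 2 were lower and 2 higher (median -0.17; 4 lower and 0 higher with library totals). Hspb1, a small heat shock protein, fell by 0.96 ± 0.22 (0.0098). Hspd1 at 0.41 ± 0.12 (0.0226), Dnaja1 at -0.36 ± 0.11 (0.0317), Hsph1 at 0.29 ± 0.1 (0.0452) and Dusp1 each lost their call in several of the 8 fits that left out 1 library. Hspd1 and Dusp1 lost it without any but WT-1136, WT-1153 and KO-1137 (up to 0.0655 and 0.104), Dnaja1 without any but WT-1135 and WT-1136 (up to 0.0893) and Hsph1 without any but KO-1152 (up to 0.138). Nab1 lost its call without KO-1139 (0.0531), and Dusp1 also with age as a covariate (0.0708) or all 16 libraries in the fit (0.341). With library totals Hspd1 was at 0.22 (0.121) and Hsph1 at 0.1 (0.474).

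**Figure D5:**
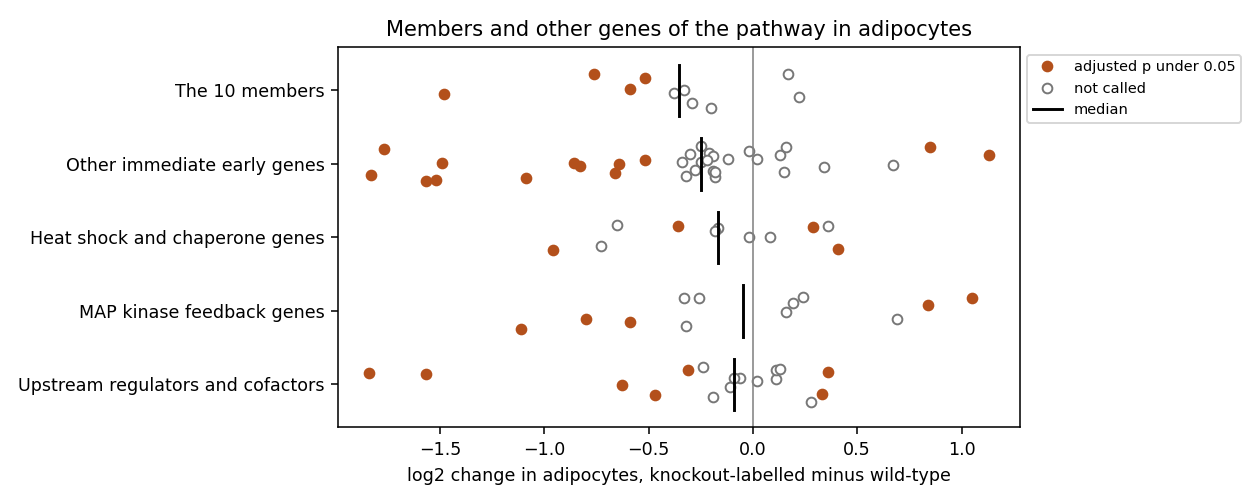
Log2 change in adipocytes, knockout-labelled minus wild-type, for the 10 genes and the 4 further lists, 1 point per gene, with the median of each list as a bar; filled points have an adjusted p under 0.05. The medians run from -0.36 for the 10 genes to -0.05 for the MAP kinase feedback genes.

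In liver the genotype labels did not separate the set. Of the 10 genes 7 passed the filter on low counts, the other 3 being Fosb, Egr2 and Egr3, and edgeR called 0 of them. An unadjusted p under 0.05 was reached by 1 gene, Atf3 (8.62% of all genes), and DESeq2 and limma-voom called 0. Over all 13288 genes tested 0.0226% were called, and 4.67% had groups that did not overlap (2.37% lower without overlap), whereas the groups of all 7 overlapped. Fos was at 1.61, 9.19, 1.6 and 12.5 CPM in wild-type and 3.25, 1.49, 2.2 and 12.6 CPM in knockout-labelled livers (-0.35 ± 0.76, adjusted p = 0.918). Each group held high and low livers, so the interval of the difference was wide, from -1.83 to 1.13. Egr1 at 57.6, 168, 26.2 and 87.1 against 28.8, 23.6, 29.2 and 249 CPM was the same in kind (-0.04 ± 0.77, interval -1.54 to 1.46, adjusted p = 0.993). The intervals were narrower for Junb (-0.52 to 0.45 around -0.04) and for Ier2 (-0.48 to 0.3 around -0.09). Jun changed by -0.4 ± 0.57 and Nr4a1 by -0.47 ± 0.26 (adjusted p = 0.869 and 0.647).

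Atf3 had the highest value of the 7, at 1.07, 0.634, 0.409 and 0.592 CPM in wild-type and 2.3, 1.69, 0.958 and 0.925 CPM in knockout-labelled livers. The change was 1.12 ± 0.4 (unadjusted p = 0.0177, adjusted p = 0.512, edgeR), at 12 to 58 counts per library. Fosb had 28 wild-type and 56 knockout-labelled counts over 4 livers each, Egr2 10 and 12, and Egr3 2 and 2, too few for a statement on genotype.

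None of the further lists had a call in liver by edgeR. For the 29 tested immediate early genes the median was -0.07, and Fosl2 was at 0.43 ± 0.14 (adjusted p = 0.5) and Ier5 at 0.37 ± 0.18 (0.604). All 10 tested heat shock and chaperone genes had values above 0, with a median of 0.37, led by Hspa1b at 1.19 ± 0.27 (0.332) and Hspa8 at 0.44 ± 0.11 (0.369). An unadjusted p under 0.05 was reached by 7 of them, against 8.62% of all genes, and DESeq2 called 2 higher, against 0.768% of all genes called. Feedback genes had a median of 0.05, with Spred1 at 0.42 ± 0.14 (0.512) and Dusp8 at 1.32 ± 0.73 (0.65). Upstream regulators had a median of 0.03, with Mapk9 at -0.18 ± 0.07 (0.515) and Mapk3 at -0.19 ± 0.09 (0.59).

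Whether the genotype difference itself differed between the tissues was tested over all 16 libraries. There 19.1% of 14898 genes were called, 10.4% higher and 8.73% lower, and 0 of the 10 genes were called by edgeR, DESeq2 or limma-voom. An unadjusted p under 0.05 in edgeR was reached by 2 of them, against 33.1% of all genes: Atf3 at -0.84 ± 0.37 (adjusted p = 0.12) and Junb at -0.7 ± 0.32 (0.14), adipocyte change minus liver change. Nr4a1 was at -0.08 ± 0.3 (0.894) and Fos at 0.04 ± 0.82 (1). Egr3 had the lowest value, -1.3 ± 1.8 (0.657), resting on 4 liver counts in all. The falls of Junb, Egr3, Nr4a1 and Egr2 in adipocytes were therefore not shown to differ from the liver changes of the same genes.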

How the data were processed

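Polyadenylated RNA of 8 mice was measured in 16 libraries, 1 adipocyte and 1 liver library per mouse. The authors deposited 1 table of raw, unscaled counts by gene symbol per library. The submitters' processing notes name STAR 2.5.2b, featureCounts 1.5.0, bcl2fastq 2.17 and the build mm10. Annotation, strand setting and handling of multiply mapped reads were not given in the sources used here, so reads of overlapping antisense genes cannot be told apart from those of a member. Of the counts from 1 to 20, 77.9% were even, so counts near 0 were halved for intervals (exact binomial, 95%). Between libraries of 1 group the chi-square per degree of freedom was 32.1 or more, beyond counting error, and mice were counted as replicates.

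Groups came from the titles. Each comparison was fitted on all genes with edgeR 4.0.16 (R 4.3.3; quasi-likelihood test, two-sided, TMM, filterByExpr by group, Benjamini-Hochberg adjusted p under 0.05), on the 8 libraries compared or, for the difference of genotype changes, on all 16. SEs were computed from the F statistics, and nominal 95% intervals from the SEs by the normal distribution. These intervals are narrower than the F test itself would give. Positions and exon lengths came from GENCODE M21 on GRCm38, in which 21737 of 23420 symbols matched 1 gene. Spread was the SD of log2 CPM with a prior count of 2. The fit was tested on simulated data: with genes changed by 1 on the log2 scale it recovered 66.7% in adipocytes and 73% in liver, and by 2, 90% and 97% (13692 and 13157 genes). Of the simulated calls 4.29% in adipocytes and 6.08% in liver were false. Only 99 or 100 genes were changed by each size, far below the 35.2% called in adipocytes. The shares are averages over genes and were not computed for genes as variable as Fos, Jun and Egr1 in liver.

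The genes named are the 10 members, Trib1, and of each further list the tested genes with the smallest p (4 for genotype in adipocytes, 2 in liver and 2 for wild-type tissue), and for each tissue the 6 non-members with a mean of at least 1 CPM that were most like the members. The members and lists were chosen with earlier results of these data known, and support nothing independently. Alternatives were DESeq2 1.42.0, limma-voom (limma 3.58.1), library totals, no filter, halved counts, all 16 libraries, age, the mouse as a block, each library or mouse left out and, chosen after seeing the data, the 70-day mice alone. The labels' numbers pair the tissues of a mouse, and the paired deviations from group means had r of -0.0591 to 0.0918 across genes.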

Additional observations from a re-analysis of the deposited data

Results flagged for a closer look

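Dixon's test was applied to the 4 libraries of each gene and group, 40 sets in all, and 4 held a library whose gap to the nearest other exceeded the critical share of the range. In 2 of these the gap is fixed by 3 libraries at 0, so they cannot be read against the 1 in 20 that chance gives. In the liver of KO-1152, Fos was at 12.6 CPM against 1.49 to 3.25 in the other knockout-labelled livers, and Egr1 was at 249 CPM against 23.6 to 29.2. The test used CPM and was not run on log2 CPM, the scale of the spread given above. On the log2 scale Fos stood at 3.66 in KO-1152 against 0.618 to 1.72, a smaller share of the range. The other 2 are Egr3, with a single liver in a group that had any count: WT-1136 at 0.0792 CPM and KO-1139 at 0.0676 CPM, each 2 counts, where the other 3 livers of the group had 0.

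Of the 73 genes of the 4 further lists 14 (19.2%) were called for a difference between the genotype change in adipocytes and that in liver, against 19.1% of all genes tested (edgeR, adjusted p in brackets), so the share was that of the background. The 9 given here are those among the genes named for a genotype comparison, which were chosen for a small p in adipocytes or in liver. Genes named only for the tissue contrast were not looked through, and the values are a description. Ier5l changed by -1.83 in adipocytes and 0.24 in liver, a difference of -2.04 ± 0.49 (0.00862). For Elk3 the changes were -1.84 and 0.29, differing by -2.11 ± 0.37 (0.0015). Hspa1b, an inducible heat shock chaperone, stood at -0.65 and 1.19, differing by -1.81 ± 0.48 (0.0157), and Hspb1 at -0.96 and 0.49, differing by -1.43 ± 0.32 (0.00578). Spry1 differed by -1.12 ± 0.29 (0.014), Fosl2 by -0.65 ± 0.17 (0.0126) and Dnaja1 by -0.54 ± 0.14 (0.0112). Positive differences were found for Mapk14, 0.39 ± 0.11 (0.0249), and Mapk9, 0.34 ± 0.09 (0.0151). None of the 10 immediate early genes described in the report was among them.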

How the results depend on the processing

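All 10 genes stayed called higher in adipocytes in both tissue contrasts under every alternative run, except that DESeq2 gave no adjusted p for 2 of them in knockout-labelled mice, where it called 8. In adipocytes the number of the 10 called lower, 4 as reported, was 7 with DESeq2, 8 with library totals, 2 in 76-day mice and 1 in 70-day mice, and 3 to 7 with a library left out. Over all genes the count there, 4849, was 1730 at 76 and 1595 at 70 days. In liver the count of genes called, 3, was 102 with DESeq2, 5 without a filter, 0 at either age, and 1 to 3 with a library left out. For the difference of changes it ran from 1758 to 2988 with a mouse left out, against 2845. The cause was not tested.

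The sign turned for Fosb in adipocytes with library totals (-0.02), and in 70-day livers for Egr1 (0.66) and Trib1 (-0.05). For the difference between tissues it turned for Egr1 with limma-voom (0.16), and for Fos (-0.19) and Jun (-0.1) with library totals. With the mouse as a block, which uses the pairing of tissues, the difference for Egr1 was 0.29 (adjusted p = 0.859), and no call among the 10 changed. The block called 10759 and 11175 genes in the tissue contrasts and 2245 for the difference. No paired analysis was possible for genotype within a tissue because the labels' numbers name single mice. Leaving out 1 liver turned Egr1 (-1.64 to 0.53), Fos (-1.44 to 0.26), Jun (-1.01 to 0.21), Junb (-0.23 to 0.1) and Ier2 (-0.26 to 0.06). Leaving out 1 mouse turned the difference for Egr1 (-1.01 to 1.27), Egr2 (-1.56 to 1.24), Egr3 (-4.12 to 1.17), Fos (-0.63 to 1.15), Jun (-0.5 to 0.77), Nr4a1 (-0.33 to 0.15) and Ier2 (-0.28 to 0.09). None of these was past the threshold as reported. Few counts limit what can be said of Fosb, Egr2 and Egr3 in liver, and the spread between livers limits Fos, Jun and Egr1.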
